A study of Mus musculus with 4 samples.

Results

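Mouse chromosome 14 was described by its H3K27me2 peaks in the maternal and paternal genomes of zygotes, and by the share of the chromosome that reads of each parental genome covered. Its members are all peaks listed on chromosome 14 in 4 deposited peak lists, 3640 of the 56036 peaks on chromosomes 1 to 19 and X. They were 230 of 5744 maternal and 1392 of 17863 paternal peaks of Ezh2m+/p+ zygotes, and 567 of 9606 maternal and 1451 of 22823 paternal peaks of Ezh2m-/p+ zygotes. The chromosome was chosen by measured values, because the ratio of maternal to paternal coverage is lowest on it, so the coverage values and the peak numbers drawn from the same reads are given as descriptions with no test.

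H3K27me2 was measured by ULI-NChIP-seq, which sequences the DNA of nucleosomes precipitated with an antibody from native chromatin of few cells. The zygotes were at the late pronuclear stage PN5, were made in vitro from eggs of C57BL/6J mothers and sperm of PWK/PhJ males, and had their polar bodies removed. The mothers of Ezh2m+/p+ zygotes were Ezh2 fl/fl, with both alleles floxed, and those of Ezh2m-/p+ zygotes were Ezh2 fl/fl; Gdf9-Cre, in which the Gdf9 promoter drives Cre in oocytes and deletes Ezh2 there. Both groups shared the floxed maternal background and a wild-type paternal allele (p+) from the sperm. All zygotes came from C57BL/6J mothers and PWK/PhJ fathers, so parental genome and strain cannot be told apart. The part of variant density along the chromosome and of read mapping in the parental differences was not tested. Each group was 1 pool of zygotes with 1 H3K27me2 library and 1 input library, so differences between genotypes rest on single libraries and carry no p-value. The deposited lists are named WT and EZH2 and were taken as Ezh2m+/p+ and Ezh2m-/p+, and every direction between genotypes rests on these names. The number of reads behind each parental genome is unknown from the values used here, although the study lists fewer reads in total for both Ezh2m-/p+ libraries than for the Ezh2m+/p+ ones, and the intervals below cover counting error only.

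H3K27me2 is the dimethylated state of lysine 27 of histone H3. It lies between the monomethylated state and H3K27me3, the mark of Polycomb repression, and the Polycomb complex PRC2 can add each of these methyl groups through its catalytic subunits EZH2 and EZH1. At fertilization the chromatin of the egg brings histones with their marks, whereas most of the sperm genome is packed with protamines that are exchanged for histones of the egg, so that marks on the paternal genome are largely laid down anew. Mouse chromosome 14 holds several large gene families, among them olfactory receptors, secreted RNases and the segments of the T cell receptor alpha and delta chains.

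To show the sequence at the largest fold over input in each list, the peak of largest fold outside untranslated regions was taken. For each, 300 bases of mm10 (plus strand) around the centre are shown, with CpG dinucleotides in capitals. A fold is a ratio to input reads, and the part of input depth in the largest folds was not tested. The maternal peak of Ezh2m+/p+ zygotes at Cacna1d (chr14:30368551-30368850) lay in an intron of that calcium channel gene and held 2 CpGs at 40% GC. The paternal peak of the same zygotes at Peli2 (chr14:48164951-48165250), a promoter peak in the authors' annotation, lay at its centre in an intron by the GENCODE models and held 4 CpGs at 51.3% GC. The maternal peak of Ezh2m-/p+ zygotes was assigned to Slc39a14 but lay inside Piwil2 (chr14:70388351-70388650), in intron at this centre, with 2 CpGs at 34.3% GC. The paternal peak of Ezh2m-/p+ zygotes at Myh7 (chr14:54986651-54986950) lay in annotated exon of that gene, inside the antisense gene Gm31251 on the other strand, and held 4 CpGs at 55% GC.
Cacna1d: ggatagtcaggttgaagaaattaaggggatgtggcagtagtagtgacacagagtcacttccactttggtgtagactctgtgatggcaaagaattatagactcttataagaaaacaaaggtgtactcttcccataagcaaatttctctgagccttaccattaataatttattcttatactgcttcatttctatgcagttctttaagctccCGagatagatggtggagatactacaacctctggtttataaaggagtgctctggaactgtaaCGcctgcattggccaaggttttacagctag
Peli2: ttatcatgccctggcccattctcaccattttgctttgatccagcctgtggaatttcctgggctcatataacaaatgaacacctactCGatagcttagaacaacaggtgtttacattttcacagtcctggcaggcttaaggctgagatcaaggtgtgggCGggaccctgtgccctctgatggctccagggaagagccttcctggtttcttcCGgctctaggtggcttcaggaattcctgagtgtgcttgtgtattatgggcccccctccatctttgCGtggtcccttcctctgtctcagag
Slc39a14: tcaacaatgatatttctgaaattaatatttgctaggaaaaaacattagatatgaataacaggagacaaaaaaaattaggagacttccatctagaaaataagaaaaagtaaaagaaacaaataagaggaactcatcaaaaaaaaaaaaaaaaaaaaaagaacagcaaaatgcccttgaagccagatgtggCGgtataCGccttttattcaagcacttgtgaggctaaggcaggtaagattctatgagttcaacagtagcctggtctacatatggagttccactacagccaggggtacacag
Myh7: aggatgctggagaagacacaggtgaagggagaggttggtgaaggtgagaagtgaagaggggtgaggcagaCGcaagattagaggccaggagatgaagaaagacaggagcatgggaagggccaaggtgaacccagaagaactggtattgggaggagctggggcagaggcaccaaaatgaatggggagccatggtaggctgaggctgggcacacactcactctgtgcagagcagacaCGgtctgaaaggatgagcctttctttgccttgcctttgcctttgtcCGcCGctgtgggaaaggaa

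The share of chromosome 14 covered by maternal reads was low and the share covered by paternal reads was high. In Ezh2m+/p+ zygotes maternal reads covered 16.95% of the chromosome and paternal reads 3.03%, against medians of 25.0% and 2.14% over the 19 other chromosomes. The values in Ezh2m-/p+ zygotes were 23.9% and 4.49%, against 35.8% and 3.15%. In both genotypes the maternal value was rank 2 from the lowest and the paternal value rank 3 from the highest of 20 chromosomes. The ratio of maternal to paternal coverage, by which the chromosome was chosen, was 5.59 and 5.32, just below chromosome 4 (5.97 and 6.21) and far from chromosome 16 (22.7 and 22.6). Coverage of chromosome 14 in Ezh2m-/p+ zygotes was 1.41 times that in Ezh2m+/p+ zygotes on the maternal genome and 1.48 times on the paternal genome, within the ranges of the other chromosomes (1.36 to 1.59 and 1.36 to 1.68).

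**Figure D1:**
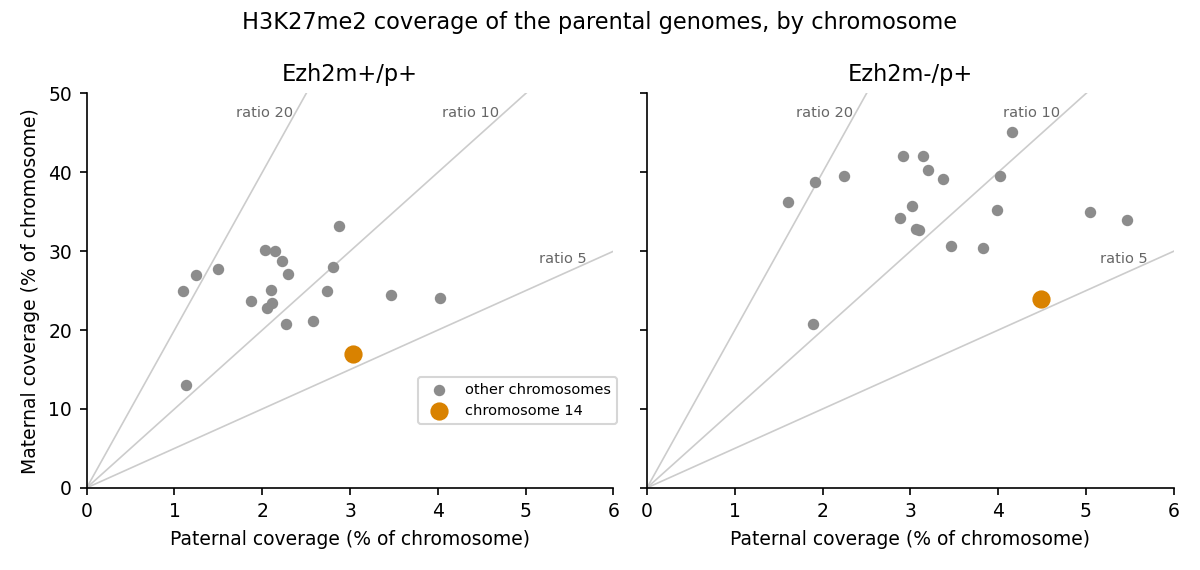
Coverage of the maternal genome (y axis, % of the chromosome) against the paternal genome (x axis, % of the chromosome) in Ezh2m+/p+ (left) and Ezh2m-/p+ zygotes (right), 1 point per chromosome from 1 library each; grey lines mark maternal to paternal ratios of 5, 10 and 20. Chromosome 14 (orange) lies closest to the line of ratio 5 in both genotypes, at 5.59 and 5.32.

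Peaks, which are regions enriched over input, were far more numerous on the paternal than on the maternal copy of chromosome 14. The maternal genome of Ezh2m+/p+ zygotes had 1.89 peaks per Mb of known sequence and the paternal genome 11.5, against 2.26 and 6.76 over the other chromosomes. Densities in Ezh2m-/p+ zygotes were 4.67 and 11.9 per Mb, against 3.71 and 8.77. Thus paternal peaks were denser here than elsewhere in both genotypes (rank 2 and rank 4 of 20), while maternal density was rank 14 for Ezh2m+/p+ and rank 8 for Ezh2m-/p+. Maternal peaks covered 0.597% and 1.39% of the known sequence and paternal peaks 3.11% and 4.6%. The maternal genome thus had the higher read coverage and the fewer peaks.

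The ratio of paternal to maternal peak number was 6.05 in Ezh2m+/p+ zygotes, rank 2 of 20 after chromosome X (13.7), and 2.56 in Ezh2m-/p+ zygotes, rank 8. The medians over the other chromosomes were 2.77 and 2.21. A stretch of 10 Mb carried much of this ratio. Without the 10 Mb holding most paternal peaks, which began at 45 Mb in both genotypes, the ratio of chromosome 14 was 2.82 and 1.37, and with the same step applied to each of the other chromosomes their medians were 2.09 and 1.75. The chromosome then stood at rank 7 and rank 13. With a fold over 10 the ratio of the whole chromosome in Ezh2m+/p+ zygotes was 12.0, and with a length over 2000 bp it was 3.34. The densest 10 Mb held 54.8% and 47.3% of its paternal peaks, rank 2 of 20 in both genotypes (medians of the others 30.9% and 26.8%).

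**Figure D2:**
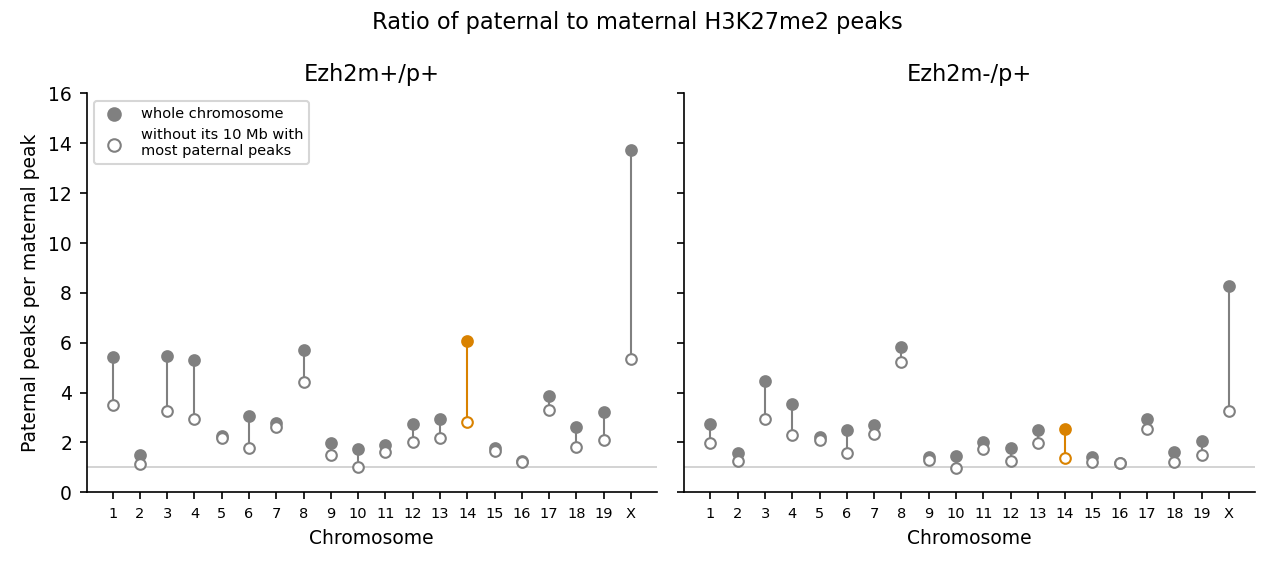
Paternal peaks per maternal peak (y axis, a ratio of counts) on each chromosome (x axis) in Ezh2m+/p+ (left) and Ezh2m-/p+ zygotes (right), for the whole chromosome (filled) and without its 10 Mb with most paternal peaks (open), from 1 library each. Chromosome 14 (orange) falls from 6.05 to 2.82 and from 2.56 to 1.37.

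Along much of the chromosome the peaks of the parental genomes, which also differ in strain, lay in different stretches. The bounds of the stretches named here were set after the window counts were seen, and they are given in Mb of mm10. From 7 to 46 Mb, 31.8% of the known sequence, lay 181 of the 230 maternal peaks of Ezh2m+/p+ zygotes (78.7%) and 400 of the 567 of Ezh2m-/p+ zygotes (70.5%). Paternal peaks were also present there, but they were only 116 (8.33%) and 148 (10.2%) of their lists. The first 4 Mb of known sequence, from 3 to 7 Mb, held no peak in any list.

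The next 10 Mb, from 46 to 56 Mb, were almost purely paternal. They held 763 paternal peaks in Ezh2m+/p+ zygotes (54.8% of the list) and 676 in Ezh2m-/p+ zygotes (46.6%), and 0 and 2 maternal peaks. Paternal peaks covered 24.0% and 34.3% of this sequence. The stretch is rich in genes, with 19.4 protein-coding genes per Mb, and holds the olfactory receptor, RNase A and T cell receptor clusters. Of the windows of 1 Mb, the 4 with most paternal peaks over both lists lay in it, and so did those from 51 to 52 and from 52 to 53 Mb, which tied next. From 48 to 49 Mb there were 147 and 109 paternal peaks, assigned most often to Tmem260, to the homeobox gene Otx2, which patterns the forebrain and eye, and to Peli2, a ubiquitin ligase. From 49 to 50 Mb there were 105 and 113, with Slc35f4 and Armh4 named most often. From 54 to 55 Mb there were 120 and 78, led by Dad1, a subunit of the oligosaccharyltransferase. The window from 50 to 51 Mb had 100 and 98, named most often for Olfr725 and, as often, for the telomerase component Tep1, and that from 51 to 52 Mb had 89 and 70, named most often for Rnase2a and then for 4930597G03Rik. The window from 52 to 53 Mb had 86 and 73. In these windows together 1 maternal peak was listed, at Peli2 in Ezh2m-/p+ zygotes.

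From 56 to 61 Mb there was no paternal peak in either genotype, and the sequence holds 11.8 protein-coding genes per Mb. From 61 to 74 Mb peaks of both parents alternated, with 39 and 134 maternal and 155 and 163 paternal peaks. Beyond 77 Mb most paternal peaks lay in 4 islands. The island from 77 to 80 Mb around Vwa8 had 91 and 89 paternal peaks, that from 95 to 98 Mb around Klhl1, an actin-organizing protein of neurons, and beside Spertl had 101 and 166, that beginning at 99 Mb around Klf5 and Klf12, zinc finger transcription factors, had 103 and 125, and the next one, with peaks assigned most often to 1700128A07Rik, had 32 and 44. Maternal peaks in these 4 islands were 0 for Ezh2m+/p+ and 3 for Ezh2m-/p+ zygotes, the latter all in the Klf5 and Klf12 island. Gene density differed widely between the paternal islands, from 1 coding gene per Mb at Klhl1 to 19.4 per Mb in the stretch from 46 to 56 Mb.

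Between 80 and 95 Mb, 12.4% of the known sequence, there was 1 peak in all, a maternal peak of Ezh2m-/p+ zygotes with a fold of 19.1. The 5 coding genes of this desert were the protocadherins Pcdh17, Pcdh20 and Pcdh9, which are cell adhesion proteins of neurons, the formin Diaph3, which nucleates actin, and the Tudor domain gene Tdrd3. GC content there was 36.9%, and 36.3% in the peak-rich stretch at Klhl1. The longest distance between neighbouring maternal peaks was 44.6 Mb in Ezh2m+/p+ zygotes, from 73438399 to 118068601, and 13.2 Mb in Ezh2m-/p+ zygotes. Paternal neighbours were at most 15.9 Mb apart in both.

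**Figure D3:**
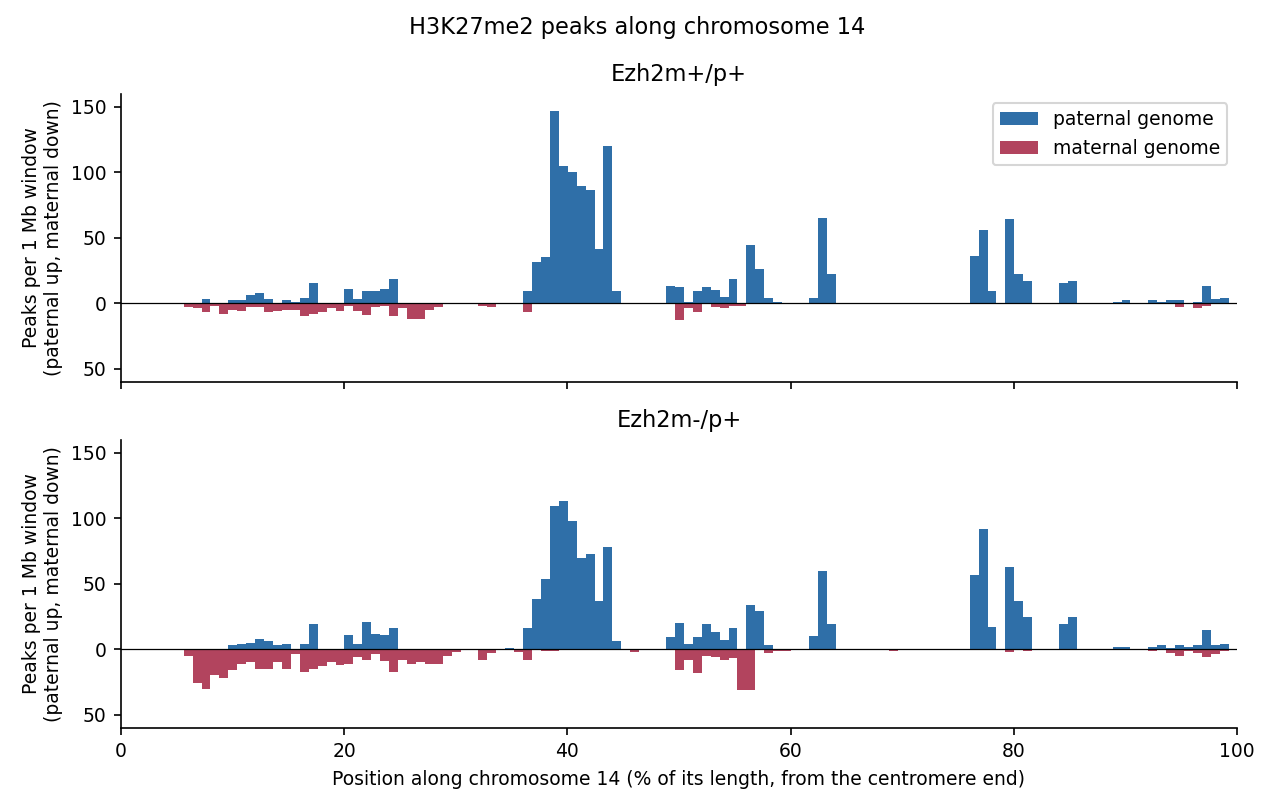
H3K27me2 peaks per window of 1 Mb (y axis, number of peaks; paternal above and maternal below the zero line) along chromosome 14 (x axis, % of its length) in Ezh2m+/p+ (top) and Ezh2m-/p+ zygotes (bottom), 1 library each. The paternal peaks reach 147 and 113 in 1 window, in the stretch where 0 and 2 maternal peaks were listed.

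Of 122 windows of 1 Mb with known sequence, maternal peaks lay in 49 for Ezh2m+/p+ and 61 for Ezh2m-/p+ zygotes, and paternal peaks in 60 in each. In Ezh2m+/p+ zygotes 18 windows (14.8%, other chromosomes 21.7%) had maternal peaks only and 29 (23.8%, others 23.7%) paternal only. Another 31 (25.4%, others 37.6%) had both, and 44 (36.1%, others 17.0%) had neither. The corresponding windows in Ezh2m-/p+ zygotes numbered 24 (19.7%, others 22.5%), 23 (18.85%, others 18.75%), 37 (30.3%, others 46.3%) and 38 (31.1%, others 12.5%). Windows with peaks of a single parent were thus about as frequent here as elsewhere, or less so. The 10 windows with most peaks held 62.9% and 56.0% of the paternal peaks, and 41.7% and 40.2% of the maternal peaks. The peak-free share of chromosome 14 was thus larger than that of the other chromosomes in both genotypes.

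Some runs of peaks of the same parent were long, although the median run was of 2 or 3 peaks. Runs of 1 peak made up 25 of 55 maternal and 15 of 55 paternal runs in Ezh2m+/p+ zygotes, and 41 and 38 of 94 in Ezh2m-/p+ zygotes. Of 1621 pairs of neighbouring peaks in Ezh2m+/p+ zygotes, 109 (6.72%) changed from one parental genome to the other, against 14.7% on the other chromosomes (range 6.16% to 24.8%). The same change was seen in 187 of 2017 pairs (9.27%) of Ezh2m-/p+ zygotes, against 15.5% (6.89% to 23.8%). The unequal peak numbers of the parental genomes move with this share, and their part in it was not tested. The longest run in Ezh2m+/p+ zygotes was 785 paternal peaks from Ddhd1 to Dleu2, spanning 16.2 Mb with no maternal peak, and the longest in Ezh2m-/p+ zygotes was 581 paternal peaks over 7.01 Mb from Peli2 to Zfhx2. The longest maternal run of Ezh2m+/p+ zygotes was 51 peaks over 14.6 Mb from Nek4.

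Direct overlap of the parental genomes was rare. A single maternal peak of each genotype overlapped a paternal peak of the same zygotes by at least 1 bp. In Ezh2m+/p+ zygotes it was 1 of 230 (0.435%, 95% Wilson interval 0.0768 to 2.42; all chromosomes 0.418%), at a distal site assigned to Ube2e1, a ubiquitin-conjugating enzyme, where the maternal peak had a fold of 49.6 and the paternal peak 5.27. The one in Ezh2m-/p+ zygotes was 1 of 567 (0.176%, 0.0311 to 0.992, all chromosomes 0.416%), with folds of 32.9 and 110. It was annotated as intronic and assigned to the histone acetyltransferase gene Kat6b, but it lay inside the gene Adk and outside the body of Kat6b. Both shares lay near those of all chromosomes, and with a reciprocal overlap of 50% or a length over 2000 bp both were 0.

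Between the genotypes the maternal list of chromosome 14 differed more in number than the paternal list. Maternal peaks numbered 230 for Ezh2m+/p+ and 567 for Ezh2m-/p+ zygotes, a ratio of 2.47 (others 1.26 to 2.83, median 1.68), the rank 2 ratio of 20 chromosomes. Paternal peaks numbered 1392 and 1451, a ratio of 1.04, the lowest of 20 chromosomes (others 1.07 to 1.71). With a fold over 10 the maternal numbers were 97 and 424, a ratio of 4.37. Under the same limit the paternal numbers were 1165 and 903, a ratio of 0.775, so the direction on the paternal genome turned. The fold values of the paternal Ezh2m+/p+ list moved in steps of 12.0, with 210 peaks at 36.1 and 186 at 48.1, and 822 of 872 peaks (94.3%) from 3 steps up were whole multiples within 0.01 of a step. With a length over 2000 bp the numbers were 183 and 350 for maternal and 611 and 842 for paternal peaks. The steps of the fold were examined after the data were seen, and in the paternal Ezh2m+/p+ list alone. Folds also recurred in the other lists, such as 63.0 for paternal and 22.9 for maternal Ezh2m-/p+ peaks and 36.2 for maternal Ezh2m+/p+ peaks. The fold scales of the lists may differ, so equal folds in different lists need not mean equal enrichment.

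Positions were shared between the genotypes more often on the paternal than on the maternal genome. Of the 1392 paternal peaks of Ezh2m+/p+ zygotes, 1025 (73.6%, 71.3 to 75.9) overlapped a paternal peak of Ezh2m-/p+ zygotes, against 66.1% over all chromosomes. Of the 1451 of Ezh2m-/p+ zygotes, 825 (56.9%, 54.3 to 59.4) overlapped, against 45.7%. The share was higher from 46 to 56 Mb, with 639 of 763 (83.7%) and 474 of 676 (70.1%), than in the rest of the chromosome, with 386 of 629 (61.4%) and 351 of 775 (45.3%). Peaks there also covered a larger share of the sequence, whose part in the overlap was not tested. In the maternal genome 29 of 230 peaks (12.6%, 8.92 to 17.5) of Ezh2m+/p+ zygotes overlapped, against 9.47% over all chromosomes, and 29 of 567 (5.11%, 3.58 to 7.25) of Ezh2m-/p+ zygotes, against 5.78%. The maternal intervals hold the values of all chromosomes. With a reciprocal overlap of 50% the shares of the Ezh2m+/p+ lists fell to 26.6% for paternal and 7.39% for maternal peaks, and with a fold over 10 to 42.0% and 6.19%.

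Before 46 Mb lay 181 (78.7%) of all maternal peaks of Ezh2m+/p+ zygotes. The 29 maternal peaks of Ezh2m+/p+ zygotes found again in Ezh2m-/p+ zygotes were assigned to 22 genes, and 25 of these 29 lay before 46 Mb. The pseudogene Mnd1-ps was the nearest start for 5 of them, and Ptprg, a receptor tyrosine phosphatase, Kat6b and Dcp1a, an mRNA decapping factor, had 2 each. By position 5 of the 29 lay in the body of the tumour suppressor gene Fhit, though 1 was assigned to it, and among them was a peak of fold 67.0 assigned to Fhitos. Their median fold in Ezh2m+/p+ zygotes was 6.87, against 8.04 for the maternal peaks that did not overlap.

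A local difference between the genotypes lay from 69 to 71 Mb, where 2 of the 5 windows with most maternal peaks are. On the maternal genome this sequence held 3 peaks in Ezh2m+/p+ zygotes, of folds 5.11 to 6.20 (5.11 at Egr3, 5.45 at Slc39a14 and 6.20 at Rhobtb2), and 62 peaks in Ezh2m-/p+ zygotes. The 14 genes listed from Slc25a37 to Slc39a14 show it by nearest start. Slc39a14, a zinc and manganese transporter, had 1 maternal peak in Ezh2m+/p+ zygotes and 5 in Ezh2m-/p+ zygotes, the highest with a fold of 152 and lying in Piwil2. Rhobtb2, an atypical small GTPase with BTB domains, had 1 and 5, with a highest fold of 122 in Ezh2m-/p+ zygotes. Egr3, an early growth response transcription factor, had 1 and 6, all of them inside Pebp4 and none in its own body. Pebp4, a member of the phosphatidylethanolamine-binding family, had 0 and 8 assigned peaks and 1 and 14 in its gene body, up to a fold of 82.6. Another 6 had maternal peaks in Ezh2m-/p+ zygotes alone, 2 each, namely Bin3, Ppp3cc, Sorbs3, Pdlim2, Tnfrsf10b and Chmp7, and Slc25a37, the mitochondrial iron importer, had 1. R3hcc1, Loxl2 and Entpd4 had none in any list. In all, 3 of 14 genes had an assigned maternal peak for Ezh2m+/p+ and 11 of 14 for Ezh2m-/p+ zygotes, and 0 of 14 had a paternal peak in either. The maternal shares, 21.4% and 78.6%, stood beside 7.4% and 10.7% of all genes of all chromosomes. These genes were listed because the maternal peaks there were already known.

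The same 2 Mb held 44 paternal peaks of Ezh2m+/p+ and 34 of Ezh2m-/p+ zygotes, and the parental peaks met without mixing. In Ezh2m-/p+ zygotes the last of the 62 maternal peaks ended at 70519399, over the gene Bmp1, a metalloprotease that processes procollagen. The first of the 34 paternal peaks began at 70537801, near Reep4, 18.4 kb further on. For Ezh2m+/p+ zygotes the first paternal peak began at 70540401, also assigned to Reep4, and the last maternal peak ended at 70383599, 157 kb before it. Beyond this point the paternal peaks lay over Hr, the hairless corepressor, Npm2, the histone chaperone nucleoplasmin of the egg, Xpo7 and Gfra2, a receptor of the neurturin ligand. Gfra2 had 24 paternal peaks of Ezh2m+/p+ and 18 of Ezh2m-/p+ zygotes and no maternal peak. Thus the paternal edge was at nearly the same place in both genotypes, while maternal peaks came within 18.4 kb of it in Ezh2m-/p+ and within 157 kb in Ezh2m+/p+ zygotes.

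**Figure D4:**
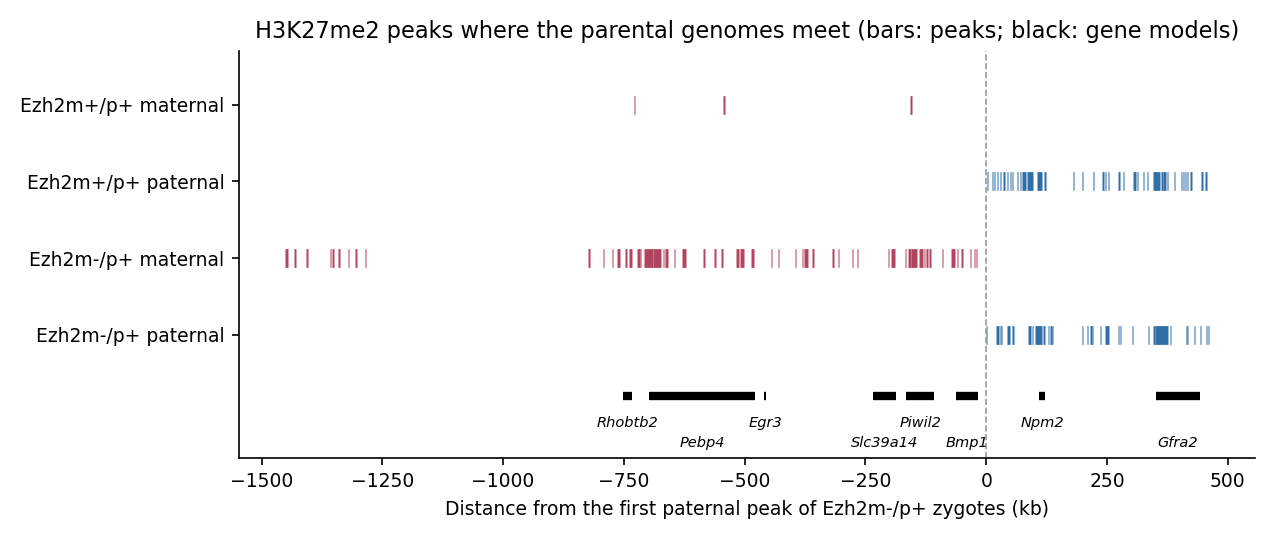
Peaks (bars drawn to scale) on both sides of the place where maternal and paternal peaks meet, up to Gfra2, in the 4 lists, against the distance in kb from the first paternal peak of Ezh2m-/p+ zygotes (x axis), with gene models in black; 1 library per genotype. The 62 maternal peaks of Ezh2m-/p+ zygotes end 18.4 kb before the 34 paternal peaks begin.

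By the authors' annotation, maternal and paternal peaks of chromosome 14 lay in different parts of genes. Introns held 41.7% (35.6 to 48.2) of the maternal peaks of Ezh2m+/p+ zygotes and 39.5% (35.6 to 43.6) of those of Ezh2m-/p+ zygotes, against 31.0% and 31.2% on the other chromosomes. They held 21.3% (19.2 to 23.5) and 24.9% (22.7 to 27.2) of the paternal peaks, against 28.8% and 27.4%. Distal intergenic sequence held 27.4% (22.0 to 33.5) and 30.9% (27.2 to 34.8) of the maternal peaks, where all chromosomes gave 33.9% and 35.8%, and 43.2% (40.6 to 45.8) and 41.1% (38.6 to 43.7) of the paternal peaks, where they gave 40.2% and 40.7%. Promoters, within 3 kb of a start, held 9.57% (6.40 to 14.1) and 13.8% (11.2 to 16.8) of the maternal peaks, against 15.8% and 16.5%, and 19.04% (17.1 to 21.2) and 16.7% (14.9 to 18.8) of the paternal peaks, against 17.3% and 16.9%. Intron shares were thus higher in maternal and lower in paternal peaks than on the other chromosomes in both genotypes. The intervals of the paternal promoter shares of both genotypes held the values of all chromosomes. So did those of the maternal promoter share and the paternal distal share of Ezh2m-/p+ zygotes. Neighbouring peaks are not independent, which these intervals do not cover. The maternal promoter share of Ezh2m+/p+ zygotes was 6.19% with a fold over 10, and the paternal one of Ezh2m-/p+ zygotes 29.3% by covered base pairs.

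A peak was assigned to 476 genes of chromosome 14. Of these, 177 had peaks in maternal lists only, 226 in paternal lists only and 73 in both. In Ezh2m+/p+ zygotes 137 of 2328 annotated genes (5.88%) had assigned maternal peaks and 270 (11.6%) paternal peaks, against 7.4% and 10.4% over all chromosomes. The numbers in Ezh2m-/p+ zygotes were 214 (9.19%) and 270 (11.6%), against 10.7% and 12.2%. Between the paternal lists 243 genes were shared, and between the maternal lists 101. The counts by parent, which pool both genotypes, and the counts of shared genes were not made on the other chromosomes. They therefore have no background here.

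The genes with most maternal peaks lay in the proximal part. Ptprg had 9 maternal peaks of Ezh2m+/p+ and 20 of Ezh2m-/p+ zygotes, and no paternal peak. Thrb, the thyroid hormone receptor beta, had 7 and 8, and Kat6b had 6 and 7. The large gene Fhit showed a wide gap between assigned and overlapping peaks, since it had 1 and 14 assigned maternal peaks but 7 and 40 in its gene body, and no paternal peak in either. Mnd1-ps was the nearest start for 6 and 24, none of them in its body. The genes with most paternal peaks were Dad1 with 76 and 50, Klhl1 with 55 and 91, Spertl with 46 and 75, Klf12 with 46 and 62 and Slc35f4 with 42 and 49, and none of these 5 had a maternal peak. Dad1 lies beside the T cell receptor alpha locus, whose segments were named for no peak in the annotation, and only 3 and 2 of its paternal peaks lay in its own body.

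Peaks of high fold over input were found on both parental genomes, and the part of input depth in these folds was not tested. In the maternal list of Ezh2m+/p+ zygotes the highest folds were 77.7 at Cacna1d, 73.7 at Capn7, a calpain protease, and at Adra1a, an adrenergic receptor, 69.7 at Rnaseh2b, a subunit of RNase H2, and 67.0 at Fhitos. In the maternal list of Ezh2m-/p+ zygotes Slc39a14 and Rhobtb2 were followed by Serpine3 at 101, Abhd6, a lipase that degrades an endocannabinoid, at 94.8, and Pebp4. In the paternal list of Ezh2m+/p+ zygotes they were 343 at 1700123O20Rik, 325 at Peli2 and at Eddm3b, an epididymal protein, and 253 at Prr30. In the paternal list of Ezh2m-/p+ zygotes they were 299 at Myh7, the beta cardiac myosin heavy chain, and at Klf12, and 284 at Rnase2a. A further 6 paternal peaks of Ezh2m-/p+ zygotes tied at 252, among them peaks at 4933429O19Rik and Armh4.

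The longest peaks were paternal. In Ezh2m+/p+ zygotes they measured 27399 bp at Haus4, a subunit of the augmin complex of the spindle, 26999 bp at Psmb5, a catalytic subunit of the proteasome, and 23399 bp at Slc22a17. Those of Ezh2m-/p+ zygotes measured 100199 bp at Ajuba, a LIM domain protein, 58799 bp at Dad1 and 49799 bp at Gm6498. The Ajuba peak, from 54538201 to 54638399, spanned the whole of the Haus4 and Psmb5 peaks of the other genotype. The longest maternal peaks were 8599 bp at Gucy1b2, a guanylate cyclase subunit, 7999 bp at Usp54 and 7599 bp at Il3ra in Ezh2m+/p+ zygotes, and 17599 and 16399 bp at Pebp4 and 15999 bp at Mapk8, the kinase JNK1, in Ezh2m-/p+ zygotes. Peaks of 10 kb or more numbered 0 and 5 on the maternal and 34 and 84 on the paternal genome. They were 0% and 0.882% of maternal peaks, where the other chromosomes had 0.163% and 0.122%, and 2.44% and 5.79% of paternal peaks, where they had 1.42% and 2.73%. The median length was 2999 and 2599 bp for maternal and 1999 and 2399 bp for paternal peaks, and the median fold 7.79 and 24.5 for maternal and 36.1 and 13.8 for paternal peaks. The other chromosomes moved in the same directions, with median lengths of 2999 and 2199 bp for maternal and 1799 and 1999 bp for paternal peaks and median folds of 7.37 and 23.7 for maternal and 36.1 and 15.8 for paternal peaks.

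The 3 gene clusters between 46 and 56 Mb carried paternal peaks and no maternal peak. The 43 olfactory and vomeronasal receptor genes there, which encode odorant and pheromone receptors, span 49894258 to 54284939, a sequence that also includes the other clusters. It held 364 paternal peaks covering 22.6% in Ezh2m+/p+ zygotes and 311 covering 34.1% in Ezh2m-/p+ zygotes. The 15 genes of the RNase A family, secreted ribonucleases that include angiogenins and eosinophil RNases, span 51007751 to 51922773 and held 80 and 67 paternal peaks, covering 24.9% and 37.9%. The 200 T cell receptor alpha and delta segments, which recombine in developing T cells, span 52427928 to 54224206 and held 103 and 87 paternal peaks, covering 13.8% and 23.9%. Coverage by paternal peaks was lowest over the T cell receptor segments in both genotypes. The receptor genes Olfr725 and Olfr749 reached a fold of 252 and Olfr1507 of 221 in Ezh2m-/p+ zygotes, and Vmn2r89 of 193 in Ezh2m+/p+ zygotes. Of the RNases, Rnase2a reached 284, Rnase2b 217, and Ang4 and Rnase6 158.

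Not every member of these families was marked. Paternal peaks overlapped the bodies of 27 of 47 olfactory and vomeronasal genes of the chromosome for Ezh2m+/p+ and 36 of 47 for Ezh2m-/p+ zygotes, of 15 of 20 RNase A genes in both, and of 44 and 73 of 200 T cell receptor segments. Over all genes of all chromosomes, paternal peaks overlapped 8.65% and 11.1% of gene bodies and maternal peaks 5.24% and 7.68%. The 5 RNase genes without a paternal peak, Ang5, Ang6, Ear1, Ear10 and Ear2, were looked up after the counts were seen, and they all lie near 44 Mb, before the paternal stretch begins. Within this family, the 15 genes inside the stretch were overlapped and the 5 outside it were not. One maternal peak, of Ezh2m-/p+ zygotes, was assigned to a receptor gene, and none overlapped one.

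Assigned peaks often lie outside the gene, so shares of members by gene body are given beside those by assignment below. Over all protein-coding genes of chromosome 14, maternal peaks overlapped 8.76% and 14.2% of gene bodies and paternal peaks 21.2% and 23.5%. Developmental transcription factors had assigned peaks of either parent, and the 4 with the highest folds were paternal. Of 17 listed, 4 had assigned maternal and 5 paternal peaks in Ezh2m+/p+ zygotes, and 10 and 8 in Ezh2m-/p+ zygotes. These are 23.5% and 58.8% for maternal and 29.4% and 47.1% for paternal peaks, beside 7.4% and 10.7% and 10.4% and 12.2% of all genes of all chromosomes. By gene body the shares were lower in 3 of 4 lists, at 23.5% and 29.4% for maternal and 17.6% and 35.3% for paternal peaks, and that of paternal peaks of Ezh2m+/p+ zygotes lay below the coding genes of the chromosome. Otx2 was the nearest start for 25 and 26 paternal peaks, with highest folds of 169 and 189, of which 1 and 1 lay in its body. Klf12 was that for 46 and 62 (highest folds 108 and 299), with 10 and 15 in its body, and Klf5 for 37 and 32 (217 and 252), with none in its body. Hesx1, a pituitary homeobox gene, had 1 and 2 (48.1 and 173). None of these 4 had a maternal peak in Ezh2m+/p+ zygotes, and only Klf5 had one in Ezh2m-/p+ zygotes. On the maternal genome, Gata4 and Nkx2-6, both known from heart development, had 0 and 2 assigned peaks each, and the retinoic acid receptor gene Rarb had 5 and 7. By gene body, maternal peaks numbered 0 and 1 for Gata4, 0 and 0 for Nkx2-6 and 4 and 6 for Rarb. These 3 were singled out after their values were seen.

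Among 15 signalling ligands and receptors, 2 had assigned maternal and 4 paternal peaks in Ezh2m+/p+ zygotes, and 1 and 5 in Ezh2m-/p+ zygotes. Their maternal shares were 13.3% and 6.67%, beside 7.4% and 10.7% of all genes, and their paternal shares 26.7% and 33.3%, beside 10.4% and 12.2%. By gene body the paternal shares were 20% and 26.7%, close to those of the coding genes of the chromosome, and the maternal ones 0%. Tnfsf11, the osteoclast factor RANKL, had 15 and 13 assigned paternal peaks with highest folds of 132 and 252, and Gfra2 reached 156 and 102. Paternal peaks in the gene body numbered 1 and 4 for Tnfsf11 and 11 and 5 for Gfra2. Bmp4 had 2 and 3 paternal peaks (72.2 and 11.8). Wnt5a, a ligand of non-canonical Wnt signalling, had 3 assigned maternal peaks in Ezh2m+/p+ zygotes and 0 in Ezh2m-/p+ zygotes, and 1 and 2 paternal peaks, none of them in its body. Its maternal peak number was lower in Ezh2m-/p+ than in Ezh2m+/p+ zygotes, unlike that of most genes named above.

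Of 8 ion channel and neurotransmitter receptor genes, 3 and 4 had assigned maternal peaks (37.5% and 50%, all genes 7.4% and 10.7%) and 2 and 2 paternal peaks (25% in both, all genes 10.4% and 12.2%), and the shares by gene body were the same. Cacna1d, a pore subunit of L-type calcium channels, had 3 and 4 maternal and 3 and 5 paternal peaks. Cacna2d3, which encodes an auxiliary subunit of such channels, had 1 and 9 maternal and 10 and 13 paternal peaks. These genes of the proximal part carried peaks of both parents, without any overlap between them. Kcnma1, the BK potassium channel, had 4 and 11 maternal peaks, and Grid1, a delta glutamate receptor, had 0 and 7 assigned and 3 and 8 in its body, and neither had a paternal peak.

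Of 6 muscle genes, 1 and 3 had assigned maternal peaks (16.7% and 50%, all genes 7.4% and 10.7%) and 3 and 2 paternal peaks (50% and 33.3%, all genes 10.4% and 12.2%). By gene body the maternal shares were the same, and the paternal ones 33.3% and 50%. Myh7 had 2 assigned paternal peaks and 4 in its body in each genotype, with highest folds of 7.15 and 299. Vcl, the adhesion protein vinculin, had 1 and 1 maternal and 2 and 1 paternal peaks, Myh6, the alpha cardiac myosin, 1 and 0 assigned paternal peaks but 3 and 2 in its body, and Synpo2l 0 and 1 maternal peaks. Of 16 chromatin regulators, 2 and 2 had assigned maternal peaks (12.5% in both, near the 7.4% and 10.7% of all genes) and 7 and 6 paternal peaks (43.8% and 37.5%, all genes 10.4% and 12.2%). The histone chaperone subunit Supt16 had 4 and 7 paternal peaks, the remodeller Chd8 10 and 6, and Npm2 3 and 3, and none of them had a maternal peak. Kat6b had 6 and 7 assigned maternal and 1 and 2 assigned paternal peaks, while 5 and 6 maternal and 0 paternal peaks overlapped its body. By gene body, 6 and 5 of 16 chromatin regulators had paternal peaks (37.5% and 31.2%, coding genes of the chromosome 21.2% and 23.5%) and 1 and 2 maternal peaks (6.25% and 12.5%, coding genes 8.76% and 14.2%).

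The last 3 small lists held cell surface genes of the distal part. The 4 protocadherin genes, Pcdh8, Pcdh9, Pcdh17 and Pcdh20, had no peak in any list. Of the 3 Slitrk genes, which encode synaptic adhesion proteins, Slitrk5 alone had assigned peaks, 3 and 4 paternal, and none lay in its body. Both glypican genes on the chromosome, Gpc5 and Gpc6, which encode heparan sulfate proteoglycans, were overlapped by 2 paternal peaks in each genotype, and Gpc6 by 3 maternal peaks in Ezh2m-/p+ zygotes. Together 2 of these 9 genes had an assigned paternal peak in each genotype and 0 a maternal peak, where all genes gave 10.4% and 12.2% and 7.4% and 10.7%, and so few genes cannot be set apart from them.

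**Figure D5:**
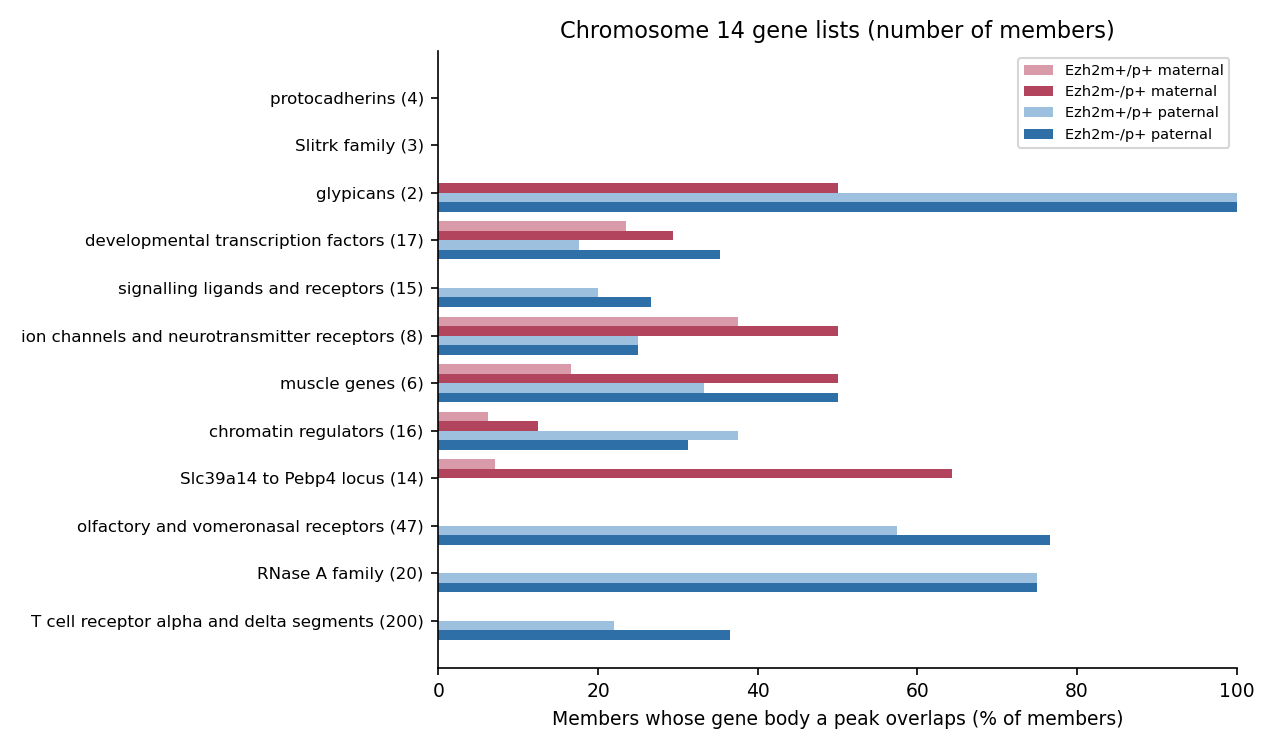
Share of members (x axis, %) of each gene list (y axis, number of members in brackets) whose gene body a maternal (red) or paternal (blue) peak overlaps, with Ezh2m+/p+ zygotes in light and Ezh2m-/p+ zygotes in dark colours, 1 library each. RNase A genes reach 75% for paternal and 0% for maternal peaks, and the genes from Slc39a14 to Pebp4 reach 64.3% for maternal peaks of Ezh2m-/p+ zygotes and 0% for paternal peaks.

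Peaks of both parents were richer in GC and poorer in repeats than the chromosome. Median GC content was 45.0% in both maternal lists, 43.7% in the paternal list of Ezh2m+/p+ and 43.0% in that of Ezh2m-/p+ zygotes, against 41.2% of the known sequence of chromosome 14. Repeat-masked bases made up a median of 18.6% and 17.9% of maternal and 22.6% and 23.5% of paternal peaks, against 34.8% of the sequence. The part of read mapping in repeats in these values was not tested. The other chromosomes gave the same order, with medians of 19.4% to 21.4% repeat-masked bases.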

How the data were processed

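H3K27me2 was profiled by ULI-NChIP-seq in PN5 zygotes of 2 genotypes, with 1 H3K27me2 and 1 input library each. Per the authors, Trimmomatic 0.38 trimmed the reads, Bowtie2 mapped them to mm10, SAMtools and Picard filtered them, and SNPsplit sorted them by C57BL/6 and PWK variants, so that only reads over a variant have a parent. Peaks of each parental genome were called against input with SICER, filtered (stated limits: length above 1000 bp, fold above 5) and annotated with ChIPseeker; the shortest listed peaks measure 999 bp. In the deposited lists the fold is the ratio of H3K27me2 to input reads as the authors' caller gave it. The deposited coverage is a fraction of each chromosome, made with the authors' own scripts, and a scaling to read number is not given in the sources used here. Of its 126 values 42 belong to MII oocytes and were not used.

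Peaks were taken as listed, placed in windows of 1 Mb by their midpoint, and compared by overlaps of at least 1 bp. A peak's gene is the one named in the lists, with symbols matched by gene ID in RefSeq's table (3626 of 3640 peaks); gene bodies are those of GENCODE vM21 on GRCm38, which mm10 shares, and sequences were read from that genome. Shares have 95% Wilson intervals for counting error. Overlap and intervals were tested on simulated data. With 1 library per genotype no test was made. Peak lists cannot show whether the cells are zygotes by marker expression. The members, gene lists and stretches were chosen with earlier results of these data known. Named were, per list, the 5 peaks of largest fold, the 3 longest peaks and the 3 genes with most peaks, maternal peaks overlapping paternal ones, up to 4 members per gene list by largest fold, the genes from Slc39a14 to Pebp4 and the genes leading the 5 densest windows of each parent; other genes named were chosen after their values were seen, and some genes that the rule names are not reported here. Alternatives were fold limits of 10, length limits of 2000 bp, windows of 500 kb, a reciprocal overlap of 50%, covered base pairs, the share of the other list, promoters by distance alone and autosomes only; the ratio without the densest 10 Mb was added after the data were seen. Python 3.11.15, numpy 2.4.6, pandas 2.3.3 and matplotlib 3.10.9 were used.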

Additional observations from a re-analysis of the deposited data

Results flagged for a closer look

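On chromosome 14 several measures of the peak lists differed between Ezh2m-/p+ and Ezh2m+/p+ zygotes in opposite directions on the parental genomes; with 1 library per genotype these differences were not tested. The median length was 400 bp lower on the maternal genome (-400 bp) and 400 bp higher on the paternal genome. The median fold was 16.68 higher on the maternal genome and differed by -22.32 on the paternal genome, where the fold of Ezh2m+/p+ zygotes moved in steps of 12.0. The distal intergenic share was 3.473 percentage points higher in maternal peaks and differed by -2.031 points in paternal peaks. The promoter share was 4.191 points higher in maternal peaks and differed by -2.29 points in paternal peaks. The exon share differed by -6.457 points in maternal peaks and was 0.3229 points higher in paternal peaks. The intron share differed by -2.233 points in maternal peaks and was 3.615 points higher in paternal peaks. The other chromosomes pooled moved in the same directions as chromosome 14 in both genomes for median length (2999 to 2199 bp maternal, 1799 to 1999 bp paternal), median fold (7.37 to 23.7 and 36.1 to 15.8), promoter share (16.1% to 16.7% and 17.2% to 16.95%) and exon share (12.7% to 10.8% and 9.50% to 10.1%), so these are not particular to chromosome 14. Their distal intergenic share was higher in Ezh2m-/p+ zygotes on both genomes (34.2% to 36.1% and 39.98% to 40.7%), and their intron share moved the other way (31.0% to 31.2% and 28.8% to 27.4%).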

How the results depend on the processing

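Of 80 values computed under alternatives for 26 results, 38 stayed within their limits, 41 moved further and 1 reversed. The limits were 1.5 times the count or the 95% interval of the share or ratio. For the coverage ratio the limit was the standard deviation over chromosomes (0.396 and 0.404), a wide band that the alternative could hardly leave. With a fold over 10 the paternal peak number ratio between the genotypes reversed from 1.04 to 0.775, and the cause was not tested. With that limit the maternal ratio was 4.37, the peak number 97 for Ezh2m+/p+ maternal and 903 for Ezh2m-/p+ paternal peaks, the paternal to maternal ratio 12.0 and 2.13, the share overlapped in the other genotype 6.19% for maternal and 42.0% for paternal peaks, the maternal share overlapping a paternal peak 0% in Ezh2m+/p+ zygotes, and the promoter share 6.19% for Ezh2m+/p+ maternal and 14.6% for Ezh2m-/p+ paternal peaks. With a length over 2000 bp the numbers were 611 and 842 for paternal peaks and 350 for Ezh2m-/p+ maternal peaks, the ratios between genotypes 1.91 for maternal and 1.38 for paternal peaks, the paternal to maternal ratio of Ezh2m+/p+ zygotes 3.34, the windows with an Ezh2m+/p+ paternal peak 35.2%, their distal intergenic share 36.7%, the paternal promoter shares 25.2% and 20.9%, the paternal share overlapped in the other genotype 78.1%, and the maternal share overlapping a paternal peak 0% in both genotypes. With covered base pairs the paternal to maternal ratio was 5.20 and 3.30, the paternal distal intergenic share 35.6% and 34.6%, the paternal promoter share 28.3% and 29.3%, the paternal share overlapped 70.8%, and the maternal share overlapping a paternal peak 0.0236% in Ezh2m-/p+ zygotes. With a reciprocal overlap of 50% the shares overlapped were 7.39% for maternal and 26.6% for paternal peaks, and no maternal peak (0%) overlapped a paternal peak in either genotype. As shares of the Ezh2m-/p+ list they were 5.11% and 56.9%. In windows of 500 kb 38.1% and 38.9% had a paternal peak. Without the 10 Mb with most paternal peaks, an alternative chosen after seeing the data, the paternal to maternal ratio was 2.82 and 1.37. For coverage, the median of the other autosomes in place of all other chromosomes changed the relative ratio from 0.481 to 0.477 and from 0.485 to 0.473. No paired analysis was possible because each group has 1 library. With 1 library per genotype, library and genotype cannot be told apart. The study lists fewer reads in total for the Ezh2m-/p+ libraries, whose lists hold more peaks; the reads behind each parental genome are unknown from the values used here, and their part in the differences between the lists was not tested.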
